A study of Arabidopsis thaliana with 16 samples.

Results

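Seedlings of the Arabidopsis thaliana triple mutant mrg1 mrg2 pif4 were set against seedlings of the single mutant pif4, both kept at 22 °C. All genes that passed a filter on low counts were compared. The comparison used 2 libraries of mrg1 mrg2 pif4 and 2 of pif4, which is 4 of the 16 libraries of the study. Both groups were Col-0 seedlings of 6 days on MS medium in continuous white light, and both carry the pif4 mutation, so they differ by label in mrg1 and mrg2 only. The same pair of genotypes after 3 h at 28 °C (2 libraries each), and mrg1 mrg2 against WT at each temperature (2 libraries each), are used below as comparisons made in other libraries. The labels give no allele names and do not say which crosses made the lines, or if both libraries of a genotype came from different seedling cultures. The p-values therefore measure only the spread between libraries, which the main fit estimated over 12 mutant libraries and shared across genes.

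MRG1 and MRG2 are related chromodomain proteins that bind histone H3 methylated at lysines 4 and 36, marks of transcribed genes. They are known to act with histone acetyltransferases and to be needed for normal flowering time. PIF4 is a bHLH transcription factor that binds G-box DNA and promotes elongation in warmth and shade, and MRG2 is known to interact with it at shared target genes. With PIF4 already mutated on both sides, the comparison asks what the loss of MRG1 and MRG2 did to transcripts in the pif4 background.

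The 4 libraries held 9108000 and 9399093 counts in mrg1 mrg2 pif4, against 8505529 and 10146860 in pif4. A gene needs 3 counts in a library to be called detected here, which is 0.302 to 0.363 CPM. CPM, a count scaled to the TMM-adjusted library size, is the unit of all levels below unless TPM, which also divides by gene length, is named. The ribosomal RNA gene AT3G41768 took 5.66% and 7.29% of counts in mrg1 mrg2 pif4, against 7.08% and 7.22% in pif4. Summed root markers stood at 310.1 and 310.5 CPM in mrg1 mrg2 pif4, against 302.3 and 294.3 CPM in pif4. Of the 16 root markers tested 0 were called, against 6.46% of all genes tested. Both root and shoot markers were present, and whole seedlings were the labelled material. In these bulk seedlings, fewer cells of a type and less RNA per cell cannot be told apart.

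MRG1 and MRG2 transcripts fell in the triple mutant, while PIF4 transcripts did not fall. MRG1 (AT4G37280, chr4:17546577-17549559, minus strand) had 4.69 and 4.34 CPM in the mrg1 mrg2 pif4 libraries, against 22.5 and 22.1 CPM in the pif4 libraries. MRG2 (AT1G02740, chr1:599330-602199, minus strand) had 3 and 2 reads in mrg1 mrg2 pif4, against 69 and 84 reads in pif4. The log2 change (mrg1 mrg2 pif4 over pif4, ± approximate standard error) was -2.30 ± 0.18 for MRG1 (adjusted p = 3.62e-11). For MRG2 the ratio of reads was 0.0316 with an exact 95% binomial interval of 0.0101 to 0.0753, which covers counting error only. Reads of MRG1 were thus still counted in the triple mutant, and MRG2 was at or below the detection floor in both of its libraries.

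PIF4 (AT2G43010, chr2:17886101-17889087, plus strand) was still transcribed in both mutants. Its level was 35.1 and 41.3 CPM in mrg1 mrg2 pif4, against 25.1 and 30.5 CPM in pif4, a log2 change of 0.45 ± 0.10 (adjusted p = 0.00207). The libraries did not overlap, but the call was lost without mrg1 mrg2 pif4 replicate 2 (adjusted p = 0.102) and without pif4 replicate 1 (0.106), and over 22 alternative settings the adjusted p ran from 0.000942 to 0.106. At 28 °C the same gene stood at 81.9 and 84.7 CPM in mrg1 mrg2 pif4 and 78.8 and 77.3 CPM in pif4 (log2 change 0.09 ± 0.08, adjusted p = 0.576), and the change at 22 °C minus that at 28 °C was 0.36 ± 0.13 (adjusted p = 0.278). A count over the whole gene does not show whether a transcript is functional.

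Some genes near MRG1 and MRG2 changed as well. Among the 8 annotated genes on either side, 4 of 11 tested were called near MRG1 and 2 of 10 near MRG2, against 6.46% of all genes tested. Near MRG1, CYP81H1 and CYP81D5 were not called with DESeq2 (adjusted p = 0.141 and 0.145) or when any compared library was left out. Near MRG2, emb2386 lost its call in some fits with a compared library left out. HMA1, which encodes a metal-transporting ATPase and is the next gene to MRG1, had 46.5 and 49.1 CPM in mrg1 mrg2 pif4, against 61.1 and 65.4 CPM in pif4 (log2 change -0.40 ± 0.08, adjusted p = 0.00102). MEE59, the third gene on the other side, had 172 and 173 CPM in mrg1 mrg2 pif4, against 129 and 126 CPM in pif4 (log2 change 0.43 ± 0.06, adjusted p = 1.21e-05). CSLD5, a cellulose synthase-like gene next to MRG2, had 87.9 and 97.7 CPM in mrg1 mrg2 pif4, against 109.6 and 126 CPM in pif4 (log2 change -0.34 ± 0.08, adjusted p = 0.00468). HMA1 and CSLD5 thus fell and MEE59 rose, and each moved the same way past the threshold at 28 °C. In mrg1 mrg2 over WT at 22 °C, HMA1 was lower too (-0.23 ± 0.08) and MEE59 higher (0.26 ± 0.06), but CSLD5 was higher (0.72 ± 0.08, adjusted p = 1.89e-08), a difference between the backgrounds of -1.06 ± 0.12 (adjusted p = 1.93e-08). At 28 °C mrg1 mrg2 over WT gave -0.28 ± 0.08 for HMA1 and 0.40 ± 0.06 for MEE59. CSLD5 was not called there (0.07 ± 0.08, adjusted p = 0.647). The CSLD5 call was lost without mrg1 mrg2 pif4 replicate 1 (adjusted p = 0.134) and without pif4 replicate 2 (0.189), and over the 22 alternatives the adjusted p ran from 0.000672 to 0.189. These neighbours were chosen after their values were seen. The labels do not describe the mutations, and local effects of a mutation on nearby genes cannot be told apart from effects of losing the MRG proteins in these data.

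**Figure D1:**
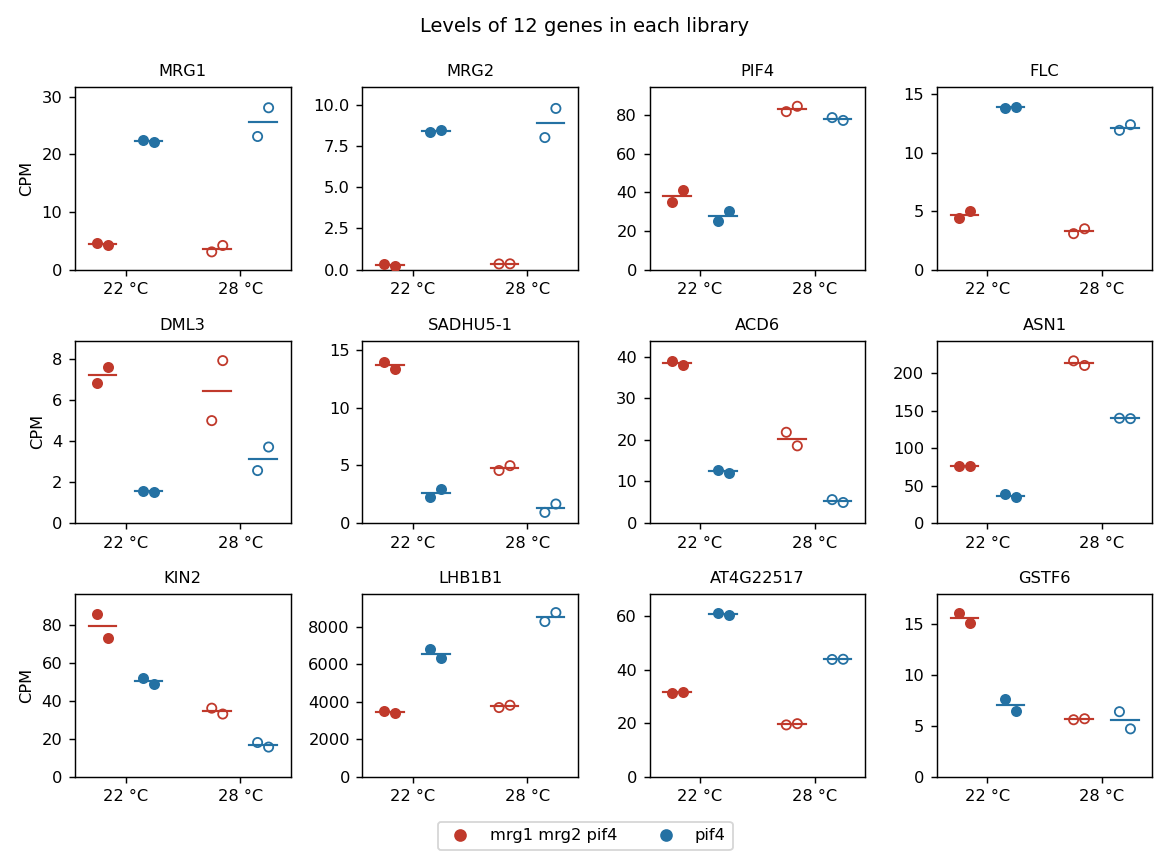
Levels of 12 genes in every library (y axis, CPM, from 0) for mrg1 mrg2 pif4 (red, left of each pair) and pif4 (blue, right of each pair) at 22 °C (filled points) and 28 °C (open points), with a line at each mean. At 22 °C the red and blue points do not overlap in any panel; for PIF4 the groups lie close at 28 °C, and for GSTF6 they overlap there.

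In all, 1290 of 19978 genes tested changed at 22 °C, which is 6.46% (adjusted p under 0.05, edgeR quasi-likelihood test). Of these, 663 rose (3.32%) and 627 fell (3.14%). At least 2-fold changes were rarer: 147 genes (0.736%) passed both criteria, 115 of them upwards and 32 downwards. The median log2 change was 0.52 among genes that rose and -0.35 among genes that fell, against 0.00125 over all genes tested. All 1290 genes had libraries that did not overlap between the genotypes, a property that 48.3% of all genes tested also had. The counts depend on single libraries: 569 and 672 genes were called without mrg1 mrg2 pif4 replicate 1 and replicate 2, and 668 and 510 without pif4 replicate 1 and replicate 2. The count of at least 2-fold changes was 96 without mrg1 mrg2 pif4 replicate 1 and 87 without pif4 replicate 2. Each of these fits left a genotype with 1 library, whose spread then came from the other groups. How much of the drop came from fewer libraries alone was not tested. DESeq2 called 635 genes, all of them among the 1290. Every one of the 1290 kept its direction in every alternative that tested it, but this could hardly come out otherwise. The alternatives reuse the compared libraries, which did not overlap for these genes.

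**Figure D2:**
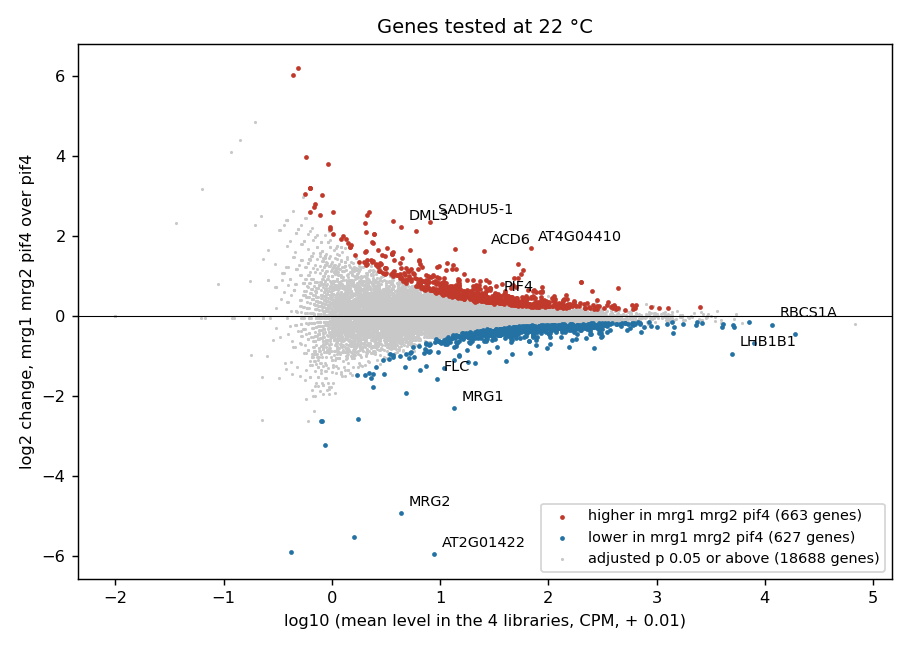
Log2 change of mrg1 mrg2 pif4 over pif4 at 22 °C (y axis) against the mean level in the 4 libraries (x axis, log10 of CPM + 0.01) for the 19978 genes tested, with 663 genes that rose in red, 627 that fell in blue and the rest in grey. Most coloured points lie within 1 log2 unit of 0, and MRG2 and the noncoding RNA AT2G01422 are the lowest of the labelled genes.

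Genes that rose and genes that fell differed in level and kind. Per length, the genes that rose had a median level of 17.8 TPM in pif4, the genes that fell 45.3 TPM, and all genes tested 13.5 TPM. The median exonic length was 1728 bases for genes that rose, 2293.5 for genes that fell and 1794 for all genes tested. The part of read number in these differences was not tested. Annotated pseudogenes, which in this reference include many transposon remnants, made up 217 of the genes tested, of which 25 rose (11.5%) and 5 fell (2.3%), against 3.22% and 3.15% of the 19329 protein-coding genes. Of 239 noncoding RNA genes, 14 rose (5.86%) and 5 fell (2.09%).

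Among the 15 largest rises with at least 5 CPM were transposon-derived and noncoding transcripts. SADHU5-1 (AT4G01525, chr4:660810-661698, plus strand), a copy of the Sadhu retroposon family, had 14 and 13.3 CPM in mrg1 mrg2 pif4, against 2.3 and 2.92 CPM in pif4, a log2 change of 2.37 ± 0.23 (adjusted p = 3.37e-09). The pseudogene AT4G04410 had 99.5 and 111 CPM in mrg1 mrg2 pif4, against 31.6 and 32.6 CPM in pif4 (log2 change 1.71 ± 0.08, adjusted p = 3.38e-17). The noncoding RNA AT2G05914 had 6.61 and 5.51 CPM in mrg1 mrg2 pif4, against 1.57 and 0.806 CPM in pif4 (log2 change 2.38 ± 0.36, adjusted p = 2.55e-05). In each of the 3, both triple mutant libraries stood far above both pif4 libraries. The noncoding RNA AT1G46554 and the pseudogene AT5G34790 also rose, by log2 changes of 1.41 ± 0.23 and 1.46 ± 0.28. Noncoding AT4G13495 (chr4:7842967-7846774, plus strand) rose to 253 and 265 CPM in mrg1 mrg2 pif4, against 139.8 and 146 CPM in pif4 (log2 change 0.86 ± 0.06, adjusted p = 2.61e-12). It overlaps the miRNA gene MIR863, which had 38 reads over both mrg1 mrg2 pif4 libraries and 9 over both pif4 libraries, so their reads cannot be told apart where they overlap.

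Other genes among these 15 rises include DML3, AT3G60110, ACD6 and BCB. DML3, a DNA glycosylase that removes methylated cytosines, had 6.83 and 7.62 CPM in mrg1 mrg2 pif4, against 1.57 and 1.51 CPM in pif4, a log2 change of 2.22 ± 0.31 (adjusted p = 4.9e-06). AT3G60110, annotated as a bromodomain protein, had 20.2 and 21.3 CPM in mrg1 mrg2 pif4, against 6.9 and 6.15 CPM in pif4 (log2 change 1.67 ± 0.16, adjusted p = 1.57e-09). ACD6, an ankyrin-repeat membrane protein that promotes salicylic acid defence, had 38.9 and 38 CPM in mrg1 mrg2 pif4, against 12.8 and 12.1 CPM in pif4 (log2 change 1.63 ± 0.13, adjusted p = 1.12e-11). In each, both triple mutant libraries lay well above both pif4 libraries. BCB, a blue copper protein of the cell surface induced by stress, had 9.6 and 9.85 CPM in mrg1 mrg2 pif4, against 2.66 and 1.81 CPM in pif4 (log2 change 2.13 ± 0.26, adjusted p = 4.94e-07). The chitinase CHI and the pyrimidine-breakdown gene PYD4 rose by log2 changes of 1.60 ± 0.31 and 1.66 ± 0.28. In the salicylic acid defence list 0 of 11 genes tested passed the threshold, against 6.46% of all genes tested, and the median log2 change was 0.27.

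A pair of transcripts read almost only in pif4 had larger fitted falls than MRG1 and MRG2. The noncoding RNA AT2G01422 (chr2:183940-184734, plus strand) had 1 and 4 reads in mrg1 mrg2 pif4, against 140 and 176 reads in pif4, a ratio of 0.0153 (exact 95% binomial interval 0.00493 to 0.0361). It had 0 reads in all 4 libraries of mrg1 mrg2 and WT at 22 °C. At 28 °C it had 0 and 1 reads in mrg1 mrg2 pif4, against 135 and 83 in pif4, and 0 and 11 in mrg1 mrg2, against 5 and 0 in WT. AT1G63540, annotated as a hydroxyproline-rich glycoprotein and named here after its values were seen, had 1 and 0 reads in mrg1 mrg2 pif4, against 35 and 20 reads in pif4. Its reads in mrg1 mrg2 and WT at 22 °C were 0 to 1 a library, and at 28 °C it had 50 and 43 reads in pif4, against 0 to 6 in each library of the other genotypes there. Both transcripts were therefore high in the pif4 line and low in mrg1 mrg2 pif4, although both lines carry pif4 by label. A difference between the pif4 lines unrelated to MRG1 and MRG2 cannot be told apart from an MRG effect for these 2 genes. From this comparison alone the same holds for the other genes, as the labels give no alleles or crosses.

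FLC, the MADS-box repressor of flowering, fell to 4.37 and 4.98 CPM in mrg1 mrg2 pif4, against 13.8 and 13.9 CPM in pif4. Both triple mutant libraries were far below both pif4 libraries, and the log2 change was -1.56 ± 0.21 (adjusted p = 3.98e-06). FDM2, a factor of RNA-directed DNA methylation, had 3.73 and 3.6 CPM in mrg1 mrg2 pif4, against 9.2 and 9.47 CPM in pif4 (log2 change -1.35 ± 0.24, adjusted p = 0.000244). AT3G62460 had 2.56 and 1.48 CPM in mrg1 mrg2 pif4, against 6.66 and 8.67 CPM in pif4 (log2 change -1.93 ± 0.30, adjusted p = 3.39e-05). Its neighbour, the pseudogene AT3G62455, which was added after its values were seen, had 9 reads over both mrg1 mrg2 pif4 libraries and 53 over both pif4 libraries. Enzyme genes among the 15 largest falls with at least 5 CPM include PGL5 and FAR5. PGL5, an enzyme of the pentose phosphate pathway, had 12.1 and 10.3 CPM in mrg1 mrg2 pif4, against 23 and 26.6 CPM in pif4 (log2 change -1.16 ± 0.14, adjusted p = 5.97e-07). FAR5, a fatty acyl reductase that makes alcohols of suberin, had 8.11 and 9 CPM in mrg1 mrg2 pif4, against 18.6 and 17.8 CPM in pif4 (log2 change -1.09 ± 0.18, adjusted p = 7.05e-05).

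The 250 bases before the annotated start of FLC (TAIR10.1, minus strand, chr5:3179449-3179698, sequence from RefSeq) are printed because this promoter region holds a G-box, the element PIF4 is known to bind, shown in capitals. The same window also holds the evening element named below, left in lower case.
FLC: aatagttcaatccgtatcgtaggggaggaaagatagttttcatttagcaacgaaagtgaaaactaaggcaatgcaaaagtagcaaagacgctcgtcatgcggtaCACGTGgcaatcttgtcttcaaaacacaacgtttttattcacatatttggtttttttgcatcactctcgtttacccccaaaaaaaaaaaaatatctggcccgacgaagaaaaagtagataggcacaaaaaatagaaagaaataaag
A G-box (CACGTG, which reads the same on both strands) was found in this window before 8.74% of the genes that fell, 7.09% of those that rose and 7.36% of all genes tested. The evening element AAAATATCT (either strand), known from promoters of clock-controlled genes, was found before 4.37% of the genes that rose, 1.13% of those that fell and 2.45% of all genes tested. These shares are descriptions of the windows and carry no test.

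Gene lists were read by their counts of called genes against the background of 3.32% higher and 3.14% lower. The sugar starvation list holds genes induced by darkness and low sugar, and 5 of its 11 tested genes rose and 0 fell (median log2 change 0.10). ASN1, the asparagine synthetase induced in the dark, had 75.5 and 76 CPM in mrg1 mrg2 pif4, against 38.3 and 34.9 CPM in pif4 (log2 change 1.05 ± 0.07, adjusted p = 1.34e-12). SEN1, a dark-inducible gene, had 44.2 and 51.6 CPM in mrg1 mrg2 pif4, against 29.1 and 25.7 CPM in pif4 (log2 change 0.81 ± 0.11, adjusted p = 3.64e-06). Both dark-inducible genes were higher in each triple mutant library than in either pif4 library. The other 3 that rose were DIN10, AT2G33830 and DIN2, the last outside the naming rule, with log2 changes of 0.20, 0.23 and 0.55. ASN1 and SEN1 thus carried the larger changes, and the count was 3, 3, 3 and 2 without mrg1 mrg2 pif4 replicates 1 and 2 and pif4 replicates 1 and 2 in turn.

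Of the 10 cold response genes tested, 4 rose and 0 fell (median log2 change 0.34). KIN2, a small protective protein, had 85.6 and 73 CPM in mrg1 mrg2 pif4, against 51.7 and 48.7 CPM in pif4 (log2 change 0.66 ± 0.09, adjusted p = 2.54e-06). COR15A and COR15B, which protect chloroplast membranes, had 5.97 and 4.76 CPM and 6.19 and 5.93 CPM in mrg1 mrg2 pif4, against 2.42 and 1.31 CPM and 2.91 and 2.42 CPM in pif4. Their log2 changes were 1.55 ± 0.37 and 1.19 ± 0.30, and LTI78 had 0.44 ± 0.10. The count fell to 2 without mrg1 mrg2 pif4 replicate 1 and to 1 without pif4 replicate 2, where KIN2 was the gene that remained called, and it was 3 without mrg1 mrg2 pif4 replicate 2. The libraries of both genotypes did not overlap for any of these 4 genes, as for all 1290 called genes and 48.3% of all genes tested. DESeq2 did not call COR15A (adjusted p = 0.237) or COR15B (0.0715). Jasmonate genes rose in 2 of 15 cases tested. OPR3, an enzyme of jasmonate synthesis, had 32.9 and 36.1 CPM in mrg1 mrg2 pif4, against 15.6 and 21.1 CPM in pif4 (log2 change 0.90 ± 0.12, adjusted p = 1.38e-06). The defensin PDF1.2 had 11 and 10 reads in mrg1 mrg2 pif4, against 1 and 1 reads in pif4. Its call was lost when any of the 4 compared libraries was left out, and the adjusted p ran from 0.0138 to 0.178 over the 19 alternatives that tested it. In the iron list 1 of 13 genes tested rose, the ferric reductase FRO3, with 69.8 and 68.1 CPM in mrg1 mrg2 pif4, against 36.1 and 35.2 CPM in pif4 (log2 change 0.95 ± 0.08, adjusted p = 6.12e-11).

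Nitrate genes moved both ways, 2 up and 2 down of 12 tested. The nitrate reductase gene NIA2 had 1301 and 1318 CPM in mrg1 mrg2 pif4, against 1585 and 1597 CPM in pif4 (log2 change -0.28 ± 0.04, adjusted p = 4.26e-05). The transporter gene NRT1.1 had 234 and 229 CPM in mrg1 mrg2 pif4, against 279.6 and 283 CPM in pif4 (log2 change -0.28 ± 0.06, adjusted p = 0.0011). Both fell, while ASN1, which the list shares with the sugar starvation list, and RFNR1 rose. Without any 1 of the 4 compared libraries 1 of the list was higher and 2 were lower. Detoxification genes moved both ways as well, with 3 up (GSTF6, GSTF7 and AT4G01870) and 3 down (NIT4, GSTF8 and OPR1) of 14 tested; NIT4 and OPR1 were named after their values were seen. Leaving out mrg1 mrg2 pif4 replicate 1 left 3 up and 0 down, and leaving out pif4 replicate 2 left 2 up and 1 down. Heat shock genes had 1 up and 2 down of 18 tested, with HSC70-1, a constitutive chaperone, at 2121 and 2168 CPM in mrg1 mrg2 pif4, against 2502 and 2504 CPM in pif4 (log2 change -0.22 ± 0.04, adjusted p = 0.000657). The 2 heat shock falls became 1 when any of the compared libraries was left out, and the rise (MBF1C) was lost without replicate 2 of either genotype. Sulfur and glucosinolate genes had 3 up and 1 down of 13 tested, but 0 in both directions without mrg1 mrg2 pif4 replicate 2. Clock genes had 3 up (FKF1, PRR7 and ELF4) and 0 down of 20 tested. All 3 lost their call without mrg1 mrg2 pif4 replicate 2, and again without pif4 replicate 1. ELF4 and PRR7 also lost it without mrg1 mrg2 pif4 replicate 1, and ELF4 and FKF1 without pif4 replicate 2.

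Lists linked to PIF4 growth control had shares called near or below the 6.46% of all genes tested. Of 18 PIF4-linked growth genes tested 0 rose and 1 fell (BS1, a bHLH gene, whose call was lost when any of the 4 compared libraries was left out), and of the 11 auxin biosynthesis and 28 auxin response genes tested 0 passed the threshold. Their median log2 changes were -0.21, -0.14 and -0.06. Gibberellin, unfolded protein response, touch and wounding, flavonoid and abscisic acid lists also had 0 genes called of 17, 12, 16, 14 and 14 tested. Lists on cell wall loosening, chlorophyll synthesis, cell cycle, brassinosteroid, light signalling, flowering and histone variants had 1 to 3 genes called each, and guard cell, vascular and seed markers had 0 of 5, 5 and 3. Signs leaned one way in some of the lists with few calls and were mixed in others. Of 19 cell cycle genes tested, 0 had a log2 change above 0 (median -0.21, 1 called lower), against 10038 of all 19978 genes tested. Above 0 were 3 of 18 PIF4-linked growth genes and 12 of 14 flavonoid genes, but 10 of 17 gibberellin, 9 of 18 light signalling and 7 of 13 flowering genes. These signs were not tested. Among MRG partners and histone H3 methyltransferases 1 of 16 fell, SDG8, the main methyltransferase of H3 lysine 36. SDG8 had 56.2 and 67.4 CPM in mrg1 mrg2 pif4, against 76 and 79 CPM in pif4 (log2 change -0.33 ± 0.08, adjusted p = 0.011). This call was lost without mrg1 mrg2 pif4 replicate 1 (adjusted p = 0.296) and without pif4 replicate 2 (0.119), and over the 22 alternatives the adjusted p ran from 0.00291 to 0.296.

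**Figure D3:**
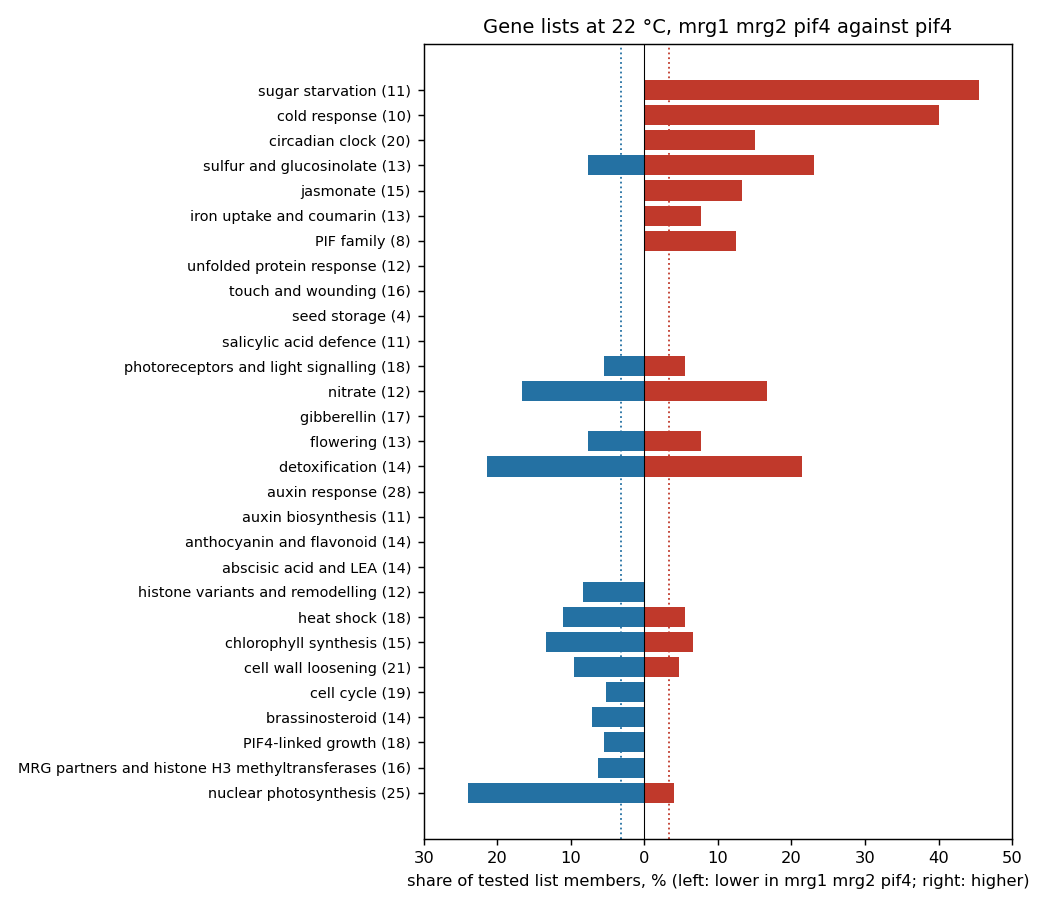
Share of the tested members of each gene list that rose (red, to the right) or fell (blue, to the left) in mrg1 mrg2 pif4 against pif4 at 22 °C, with the number tested in brackets and dotted lines at the shares over all genes tested (3.32% and 3.14%). Among the lists plotted, which leave out the cell type markers and the mutated genes, sugar starvation and cold response reach furthest right, with 5 of 11 and 4 of 10 genes, and photosynthesis furthest left, with 6 of 25.

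Of 25 nuclear photosynthesis genes tested, 6 fell, 1 rose and 18 were not called, and the median log2 change was -0.02. RBCS1A, a Rubisco small subunit, had 10849 and 10776 CPM in mrg1 mrg2 pif4, against 12551 and 12493 CPM in pif4 (log2 change -0.21 ± 0.04, adjusted p = 0.000312). LHCA4, an antenna protein of photosystem I, had 3714 and 3572 CPM in mrg1 mrg2 pif4, against 4431 and 4402 CPM in pif4 (log2 change -0.28 ± 0.04, adjusted p = 2.48e-05). The one that rose was PSBQ-2 of photosystem II (log2 change 0.21 ± 0.04). The count of 6 was 5 and 3 without mrg1 mrg2 pif4 replicates 1 and 2, and 3 and 4 without pif4 replicates 1 and 2. Summed shoot and leaf markers were 21035 and 20500.0 CPM in mrg1 mrg2 pif4, against 24415 and 23980.0 CPM in pif4, with 3 of 10 tested genes lower, and 1 or 2 of the list's 12 genes had 0 reads in each library. Those 3 markers (RBCS1A, CAB2 and CAB3) are also in the photosynthesis list, and the part of shoot content in the result was not tested. Larger falls were seen in an antenna gene pair of photosystem II on chromosome 2. LHB1B1 (chr2:14524607-14525918, plus strand) had 3505 and 3379 CPM in mrg1 mrg2 pif4, against 6822 and 6334 CPM in pif4 (log2 change -0.93 ± 0.06, adjusted p = 1.89e-13). Its neighbour LHB1B2 had 6352 and 6028 CPM in mrg1 mrg2 pif4, against 10151 and 9481 CPM in pif4 (log2 change -0.67 ± 0.05, adjusted p = 2.07e-12). The 2 genes share 13.6% and 17.3% of their stretches of 50 bases with each other, so some reads could be counted for either one.

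A run of 6 lipid transfer protein genes on chromosome 4 fell together. Lipid transfer proteins are small secreted proteins with a fold that binds lipids. The run was picked out after its values were seen, from 2 members among the largest falls (AT4G22490 and AT4G22520). AT4G22485 had 114 and 113 CPM in mrg1 mrg2 pif4, against 199 and 190.4 CPM in pif4, a log2 change of -0.77 ± 0.06. AT4G22490 had 22.2 and 29 CPM in mrg1 mrg2 pif4, against 59.2 and 52 CPM in pif4, a log2 change of -1.12 ± 0.12. In both, each pif4 library was well above each triple mutant library. AT4G22505 had 43.4 and 51.2 CPM in mrg1 mrg2 pif4, against 93.5 and 84.8 CPM in pif4, a log2 change of -0.91 ± 0.11. AT4G22513 had 19.5 and 20 CPM in mrg1 mrg2 pif4, against 41.3 and 32.9 CPM in pif4, a log2 change of -0.90 ± 0.13. The separation was the same for this pair. AT4G22517 had 31.2 and 31.8 CPM in mrg1 mrg2 pif4, against 61.1 and 60.5 CPM in pif4, a log2 change of -0.95 ± 0.09. The run ends with AT4G22520, which had 6.08 and 6.46 CPM in mrg1 mrg2 pif4, against 15.5 and 15.5 CPM in pif4, a log2 change of -1.30 ± 0.17. All 6 passed the threshold, with adjusted p from 6.75e-11 for AT4G22485 to 9.52e-06 for AT4G22513, and all 6 fell at 28 °C too. In mrg1 mrg2 over WT at 22 °C, 3 of the 6 fell (AT4G22490, AT4G22505 and AT4G22520) and 3 were not called (AT4G22485 -0.15 ± 0.07, AT4G22513 -0.28 ± 0.13 and AT4G22517 -0.10 ± 0.09). The change at 22 °C differed between the pif4 and the WT background for 4 of the 6, all but AT4G22490 and AT4G22520. At 28 °C, mrg1 mrg2 over WT was called lower for AT4G22485 (-0.28 ± 0.07), AT4G22505 (-0.51 ± 0.11) and AT4G22517 (-0.52 ± 0.10). AT4G22490 (-0.42 ± 0.11) and AT4G22520 (-0.51 ± 0.17) were called lower there too, and AT4G22513 (-0.33 ± 0.15, adjusted p = 0.138) was not called. The difference between the backgrounds at 28 °C was not tested. The genes next to the run, AT4G22470, annotated as a lipid transfer protein too (log2 change 1.91 ± 0.66, adjusted p = 0.0809) and AT4G22530, annotated as a methyltransferase (log2 change 0.65 ± 0.23, adjusted p = 0.0854), were not called at 22 °C, and AT4G22530 rose at 28 °C (adjusted p = 0.00814). AT4G22530 overlaps AT4G22520 on the other strand, and the strand setting of the counting is not given in the sources used here, so reads of these 2 genes cannot be told apart.

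**Figure D4:**
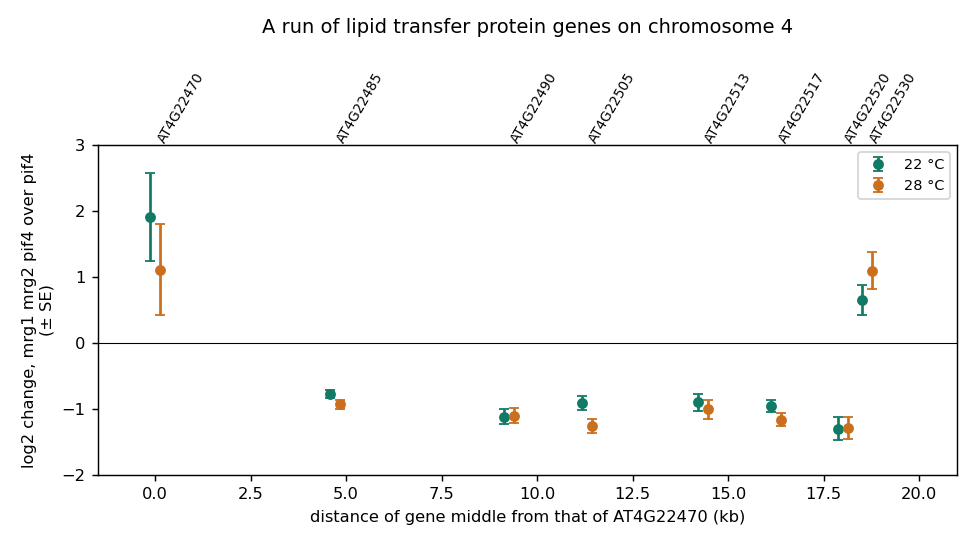
Log2 change of mrg1 mrg2 pif4 over pif4 (y axis, ± approximate standard error) at 22 °C (green) and 28 °C (orange) for 8 neighbouring genes, placed by the distance of each gene's middle from that of AT4G22470 (x axis, kb). The 6 genes of the middle all lie below 0 at both temperatures, from -0.77 to -1.30 at 22 °C, and the genes at both ends lie above it.

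The 250 bases before the annotated starts of 3 genes of this run are printed because they lie next to each other on the plus strand and fell together (TAIR10.1, chr4:11854559-11854808, chr4:11856493-11856742 and chr4:11858364-11858613, sequence from RefSeq). Capitals mark the TATA motif TATAAA, read on either strand (TTTATA on the other).
AT4G22513: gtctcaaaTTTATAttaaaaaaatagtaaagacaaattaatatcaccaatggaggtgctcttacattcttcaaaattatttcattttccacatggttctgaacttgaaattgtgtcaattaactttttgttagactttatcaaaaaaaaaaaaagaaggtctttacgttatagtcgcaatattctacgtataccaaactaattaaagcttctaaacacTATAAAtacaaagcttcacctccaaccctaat
AT4G22517: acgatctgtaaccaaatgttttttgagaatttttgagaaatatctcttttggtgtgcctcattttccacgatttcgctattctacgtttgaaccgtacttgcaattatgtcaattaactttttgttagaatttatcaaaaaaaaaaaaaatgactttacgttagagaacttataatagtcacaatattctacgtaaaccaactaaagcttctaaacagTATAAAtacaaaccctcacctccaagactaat
AT4G22520: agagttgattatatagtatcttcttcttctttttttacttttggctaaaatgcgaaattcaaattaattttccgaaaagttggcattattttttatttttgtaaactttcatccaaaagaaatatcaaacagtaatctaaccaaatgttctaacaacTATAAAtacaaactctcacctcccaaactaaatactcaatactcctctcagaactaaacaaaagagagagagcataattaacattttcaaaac
The motif TATAAA was found in this window before 46.2% of all genes tested, 44.2% of those that fell and 46.8% of those that rose. AT4G22513 and AT4G22517 were identical in 69.6% of 276 columns of a global alignment of these windows, while other pairs among the 6 genes that fell were identical in 49.7% to 55.5%. Within their transcribed regions AT4G22513 and AT4G22517 share 3.44% and 3.5% of stretches of 50 bases, and the other 4 genes share 0% with any other gene of the run. Each gene was read on its own strand, so the overlap of AT4G22520 with AT4G22530 is outside this comparison. Stretches shared with the rest of the genome were not examined.

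At 28 °C the same pair of genotypes gave 1886 called genes (9.44% of 19978), 676 higher (3.38%) and 1210 lower (6.06%), in libraries not used at 22 °C. Of the 1290 genes called at 22 °C, 638 were called in the same direction at 28 °C (288 higher and 350 lower), which is 49.5% of the 22 °C list and 33.8% of the 28 °C list, and 3 were called in the opposite direction. The sign was the same at both temperatures for 1176 of the 1290 genes (91.2%), against 64.2% of all genes tested. The count at 28 °C was 1110 without pif4 replicate 2, and 1100 and 1149 without mrg1 mrg2 pif4 replicates 1 and 2 of that temperature. AT4G04410 was again higher, with 101 and 96.4 CPM in mrg1 mrg2 pif4, against 35.4 and 31.9 CPM in pif4 (log2 change 1.55 ± 0.08). FLC was again lower, with 3.07 and 3.49 CPM in mrg1 mrg2 pif4, against 11.9 and 12.4 CPM in pif4 (log2 change -1.87 ± 0.23). ACD6 and LHB1B1 also kept their directions, with log2 changes at 28 °C of 1.91 ± 0.15 and -1.18 ± 0.06.

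**Figure D5:**
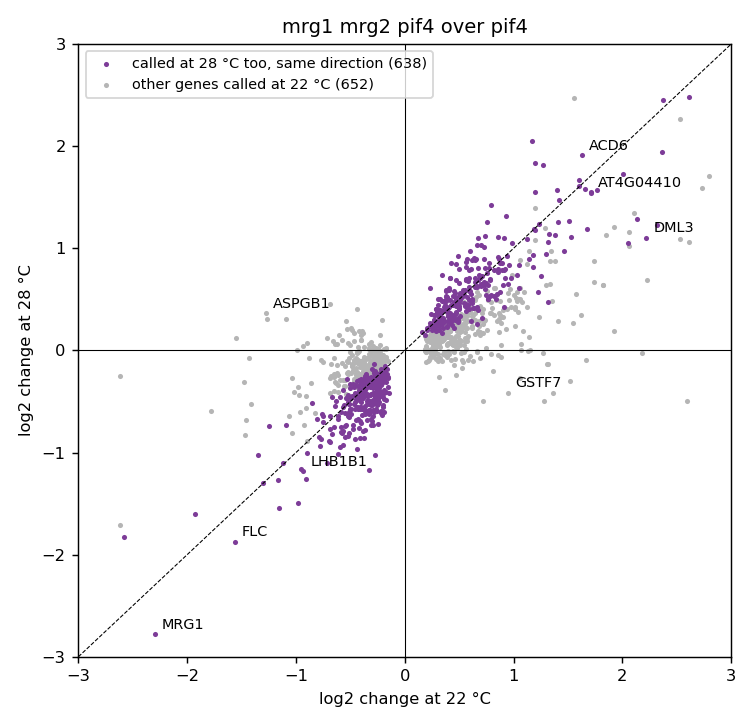
Log2 change of mrg1 mrg2 pif4 over pif4 at 28 °C (y axis) against that at 22 °C (x axis) for genes called at 22 °C, with the 638 also called at 28 °C in the same direction in purple and the rest in grey; the dashed line marks equal change and 14 genes lie outside the axes. Purple points follow the line in both directions, while GSTF7 and ASPGB1 lie across 0 from it.

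The change differed between the temperatures for 101 genes (0.506%) by a test of the difference itself. This count ranged from 32 to 151 when single libraries were left out: it was 35 and 37 without mrg1 mrg2 pif4 replicates 1 and 2 and 59 and 43 without pif4 replicates 1 and 2 of 22 °C, and at 28 °C 32 and 36 without mrg1 mrg2 pif4 replicates 1 and 2 and 35 without pif4 replicate 2. GSTF6, a glutathione transferase induced by stress, had 16 and 15 CPM in mrg1 mrg2 pif4, against 7.63 and 6.45 CPM in pif4 at 22 °C, but 5.57 and 5.67 CPM in mrg1 mrg2 pif4 and 6.36 and 4.68 CPM in pif4 at 28 °C. Its change at 22 °C minus that at 28 °C was 1.14 ± 0.26 (adjusted p = 0.0272). For SEN1 the 28 °C levels were 84.4 and 97.6 CPM in mrg1 mrg2 pif4 and 106 and 103 CPM in pif4, and the difference was 1.01 ± 0.15 (adjusted p = 0.000209). GSTF6 shares 10.3% of its stretches of 50 bases with its neighbour GSTF7, so their reads could be mixed. For RBCS1A the fall was larger at 28 °C, where it had 6528 and 6595 CPM in mrg1 mrg2 pif4, against 10091 and 10217 CPM in pif4 (difference 0.42 ± 0.05, adjusted p = 7.58e-05). Of the photosynthesis list, 20 of 25 genes tested were lower at 28 °C, and 9 of 25 had a difference between temperatures that passed the threshold.

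Loss of MRG1 and MRG2 in plants with PIF4, read from mrg1 mrg2 against WT in other libraries, moved some of the same genes. At 22 °C that comparison called 4918 of 20075 genes (24.5%), and 512 of the 1290 genes moved in the same direction and 140 in the opposite one, which puts the shared direction at 39.7% of one list and 10.4% of the other. At 28 °C it called 2830 genes (14.1%), with 609 in the same direction (47.2% and 21.5%) and 34 opposite. In all 4 comparisons, which share no library, 105 genes were higher and 150 lower. Genes of this set named here after their values were seen include AT2G25510, SULTR2;1 and UBC8. AT2G25510, an uncharacterized protein, had 81 and 80.7 CPM in mrg1 mrg2 pif4, against 35.6 and 37.5 CPM in pif4 (log2 change 1.14 ± 0.09), and mrg1 mrg2 over WT at 22 °C gave 1.49 ± 0.09. SULTR2;1, a sulfate transporter, had 59.7 and 57.2 CPM in mrg1 mrg2 pif4, against 99.4 and 93.1 CPM in pif4 (log2 change -0.72 ± 0.08), and mrg1 mrg2 over WT gave -0.88 ± 0.08. UBC8, a ubiquitin-conjugating enzyme, had 195 and 185 CPM in mrg1 mrg2 pif4, against 339 and 326 CPM in pif4 (log2 change -0.81 ± 0.07), while it averaged 186 CPM in mrg1 mrg2 and 371 CPM in WT. The change in the pif4 background minus that in the WT background was -0.35 ± 0.13, 0.16 ± 0.11 and 0.19 ± 0.10 for these 3 genes (adjusted p = 0.0781, 0.392 and 0.234), differences that did not pass the threshold. FLC fell in both backgrounds, and its change with pif4 minus that with WT was -0.70 ± 0.31 (adjusted p = 0.148).

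Other genes changed differently in the pif4 and the WT background. By a test of the difference, 2645 of 20075 genes (13.2%) had a change at 22 °C that differed between the pif4 and the WT background. The labels do not say if the pif4 lines differ elsewhere, and such a difference cannot be told apart from a background effect here. ASN1 rose in the pif4 background (log2 change 1.05 ± 0.07), whereas mrg1 mrg2 over WT gave -0.89 ± 0.10, a difference of 1.95 ± 0.12 (adjusted p = 2.75e-14). PGL5 fell in the pif4 background, whereas mrg1 mrg2 over WT gave -0.02 ± 0.15, a difference of -1.13 ± 0.21 (adjusted p = 0.000202). LHB1B1 fell in both, but less in the WT background (-0.16 ± 0.06), a difference of -0.77 ± 0.08 (adjusted p = 4.81e-09). Its mean at 22 °C was 6578 CPM in pif4, 3442 CPM in mrg1 mrg2 pif4, 2747 CPM in mrg1 mrg2 and 3075 CPM in WT. At 28 °C LHB1B1 changed by -1.18 ± 0.06 in the pif4 background and by -0.76 ± 0.06 in mrg1 mrg2 over WT, and that difference was not tested. KIN2 rose in the pif4 background and had a log2 change of -0.01 ± 0.09 in mrg1 mrg2 over WT, a difference of 0.67 ± 0.13 (adjusted p = 0.000241). AT4G04410, SADHU5-1 and AT4G13495 had smaller differences of -0.06 ± 0.13, -0.03 ± 0.36 and -0.09 ± 0.09, with adjusted p of 0.842, 0.976 and 0.609, and these did not pass the threshold. These 3 transcripts were higher in mrg1 mrg2 over WT as well, by 1.77 ± 0.10, 2.40 ± 0.23 and 0.94 ± 0.06.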

How the data were processed

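The deposited file holds raw read counts per gene for 16 libraries, which the authors made with cutadapt, HISAT2, SAMtools and featureCounts on build TAIR10, per the submitters' processing notes; no source used here gives versions or the strand setting. Libraries were stranded mRNA libraries of whole seedlings, per the labels' protocols. All comparisons rest on edgeR 4.0.16 (R 4.3.3) quasi-likelihood tests of the counts with TMM scaling and Benjamini-Hochberg adjustment, called at an adjusted p under 0.05. The fit used 12 libraries of the mutant genotypes (6 groups of 2, 6 residual degrees of freedom) and the 19978 of 33602 genes that passed a minimum count of 10. WT entered a second fit of all 16 libraries with 20075 genes. Standard errors are the log2 change divided by the root of the F statistic, and intervals and floors cover counting error only. Replicate numbers were not used to pair the libraries in the main fit. The fits were tested on simulated data.

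Named genes were the mutated genes, the 15 largest changes per direction with at least 5 CPM and libraries that did not overlap, up to 4 genes per list by p, the 10 smallest p also called at 28 °C, and the 5 largest differences per direction in each test of a difference; the text names a part of them. The members and lists were chosen with earlier results of these data known. Alternatives were RLE and upper quartile scaling, DESeq2 1.42.0, other filters, other sets of libraries, a replicate block, and each library left out in turn. Gene names and sequences come from RefSeq TAIR10.1.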

Additional observations from a re-analysis of the deposited data

Results flagged for a closer look

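The effect of mrg1 mrg2 in the pif4 background differed between 22 °C and 28 °C, by a test of the difference, for several named genes. Among all 101 genes with such a difference, it was positive for 88 and negative for 13. Of the 101, 34 were also called at 22 °C, and 73 were called lower at 28 °C. The genes named here were picked, up to 5 per direction, from those also called at 22 °C. The log2 change at 22 °C minus that at 28 °C was 1.36 for the glutathione transferase GSTF7, 1.14 for GSTF6, 1.21 for the thalianol synthase THAS1, 1.01 for SEN1 and 0.84 for AT1G66100. It was negative for BGLU21 (-0.51), AT1G52070 (-0.69), AT2G25980 (-0.82), the auxin efflux carrier EIR1 (-0.84) and the asparaginase ASPGB1 (-1.64). The largest in size was that of ASPGB1, which had 2.35 and 3.18 CPM in mrg1 mrg2 pif4, against 6.42 and 6.95 CPM in pif4 at 22 °C, and 3.64 and 4.88 CPM in mrg1 mrg2 pif4, against 3.28 and 3.44 CPM in pif4 at 28 °C. DESeq2 did not call the 22 °C change of THAS1, AT1G66100, BGLU21 or EIR1 (adjusted p = 0.0611, 0.0708, 0.0771 and 0.0694).

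The effect of mrg1 mrg2 at 22 °C also differed between the pif4 and the WT background. The log2 change in the pif4 background minus that in the WT background was 5.42 for BCB, 3.18 for AT1G73120, 2.89 for THAS1, 2.76 for AT1G14960 and 2.75 for AT4G01870. It was negative for E13L3 (-1.48), AtCDC48B (-1.49), AT2G05510 (-1.55), AT1G04425 (-1.56) and the meiotic crossover gene HEI10 (-1.67). The 22 °C change in the pif4 background was not called by DESeq2 for E13L3, AtCDC48B, AT1G04425 and HEI10 (adjusted p = 0.203, 0.0794, 0.158 and 0.140). BCB averaged 0.484 CPM in mrg1 mrg2 and 4.86 CPM in WT at 22 °C, while it stood at 9.6 and 9.85 CPM in mrg1 mrg2 pif4, against 2.66 and 1.81 CPM in pif4.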

How the results depend on the processing

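At 22 °C, DESeq2 called 303 genes higher and 332 lower, 68 of them at least 2-fold, against 663, 627 and 147 with edgeR. DESeq2 also called 1111 genes at 28 °C, against 1886, and 156 genes with a difference between the temperatures, against 101. A minimum count of 50 left 75 genes with at least 2-fold changes. With upper quartile scaling 740 genes were higher and 512 lower. The cause was not tested, except that the stricter filter tests fewer genes. Leaving out each of the 12 libraries in turn gave 265 to 685 higher, 245 to 699 lower and 87 to 155 at least 2-fold at 22 °C, 1100 to 1915 at 28 °C, and 32 to 151 for the difference between temperatures. The lowest counts at 22 °C came without pif4 replicate 2.

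Gene by gene, same-numbered libraries hardly deviated together (correlation of deviations 0.0343 between mrg1 mrg2 pif4 and pif4 at 22 °C). The ribosomal RNA share, however, was higher in replicate 2 than in replicate 1 of every group. In mrg1 mrg2 pif4 at 28 °C it was 4.88% in replicate 1 and 8.50% in replicate 2. Whether the numbers pair the samples is therefore not settled by these data. With a replicate block, 763 genes were higher and 760 lower, and 153 had a difference between temperatures. The difference between backgrounds gave 2645 genes, 2643 with RLE scaling, 2940 with the block and 2845 from the 8 libraries at 22 °C. Over 22 alternatives no named gene changed direction where the main fit or the alternative called it. Genes called in neither could change sign, as the seed marker OLEO1 did (log2 changes from -0.18 to 4.11). Of 199 named genes, 134 neither lost nor gained a call, a number that includes genes never called. At least one call was lost by 55 genes and gained by 10, and most of the 227 lost calls came with a compared library left out. With 2 libraries a group, a gene at the floor of 0.302 to 0.363 CPM cannot be told from an unexpressed one.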
